A study of Mus musculus with 3 samples.

Results

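The 10 genes described here encode C-type lectin receptors of myeloid cells. They were chosen by symbol, as Clec4a1, Clec4a2, Clec4a3, Clec4d, Clec4e, Clec4n, Clec5a, Clec7a, Clec10a and Clec12a, and were found by their NCBI Gene ID among the 16742 genes listed in any library. RNA-seq was available for 3 libraries, 1 per condition, each made from bone marrow cells pooled from 3 mice on the C57BL/6 background that the labels give as 6 to 8 weeks old. The control library was made from lin- cells of wild-type mice, which are the cells left after depletion of those with mature lineage markers. For TR1 and TR9, RNA came from sorted GFP+ cells of leukemia mice that carry TBLR1-RARα (TR), a fusion of a corepressor subunit with the retinoic acid receptor. TR and GFP were expressed from 1 retroviral vector in lin- cells of wild-type mice. TR1 and TR9 are the leukemias of separate primary recipients, passed on through spleen cells to third-generation recipients, so each is the progeny of 1 mouse. Control cells were lineage-depleted and TR cells were not, and only TR cells were transduced, passed through recipients and sorted for GFP. Isolation, transduction, transplantation and genotype therefore cannot be told apart in any comparison with control. No condition has a replicate.

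C-type lectin receptors are transmembrane proteins that bind sugars, lipids or proteins of fungi, bacteria and dying cells on monocytes, macrophages, dendritic cells and granulocytes. Activating members signal through an immunoreceptor tyrosine-based activation motif (ITAM), which lies in an adaptor such as FcRγ (Fcer1g) or DAP12 (Tyrobp), or through a related motif in their own tail. The motif recruits the kinase Syk, and Card9 with Bcl10 and Malt1 then carries the signal to NF-κB. Inhibitory members carry an immunoreceptor tyrosine-based inhibitory motif (ITIM) that recruits phosphatases such as SHP-1 (Ptpn6). CLEC12A, also called CLL-1, is known as a surface antigen of human acute myeloid leukemia cells.

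Of the 10 genes, 9 lie on chromosome 6 and Clec10a lies on chromosome 11. In the order of the RefSeq table, Clec4a1, Clec4a3, Clec4a2, Clec4n, Clec4d and Clec4e belong to one run of neighboring lectin genes, the Dectin-2 cluster, and Clec12a and Clec7a to another, the Dectin-1 cluster, while Clec5a stands apart from both. Stretches upstream of the transcription start are shown for 5 of the 6 members called in a comparison below, which did not all rise in the same leukemia. Matches to the core of the PU.1 site (GAGGAA) and to a C/EBP site (TTGCNNAA) are in capitals. Both factors are known regulators of myeloid genes. Each stretch is written 5′ to 3′ on the strand of the gene, from RefSeq on GRCm38.p6. Stretches of 150 bases end at the base before the start site. For Clec5a and Clec12a, whose upstream bases overlap annotated exons, 30 bases with a match are shown, and for Clec4a2 none.
Clec4e, minus strand, chr6:123289872-123290021: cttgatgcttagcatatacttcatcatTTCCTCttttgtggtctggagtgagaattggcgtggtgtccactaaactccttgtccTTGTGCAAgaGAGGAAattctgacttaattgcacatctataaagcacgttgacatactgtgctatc
Clec4d, plus strand, chr6:123261957-123262106: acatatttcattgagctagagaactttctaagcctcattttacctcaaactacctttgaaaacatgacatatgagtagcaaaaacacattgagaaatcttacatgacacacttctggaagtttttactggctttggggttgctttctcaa
Clec7a, minus strand, chr6:129472786-129472935: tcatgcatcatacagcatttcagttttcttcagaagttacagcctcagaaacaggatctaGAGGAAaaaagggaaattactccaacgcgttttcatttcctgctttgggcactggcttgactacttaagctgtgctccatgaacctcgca
Clec5a, minus strand, chr6:40585843-40585872: gtagaagttcccTTCCTCtttttgccccgc
Clec12a, plus strand, chr6:129350178-129350207: aatatGAGGAAgaaaagtgTTCCTCtttca

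In the 250 bases before the start, on either strand, 7 of the 8 members with a RefSeq entry held at least 1 PU.1 core, against 23.3% of all 32851 promoter windows. Clec4a2 was the member without one. A member was counted if any of its windows held a match, whereas the share of all promoters is per window, so these values are not strictly alike. In Clec4e a core 56 to 51 bases before the start followed a C/EBP match at 66 to 59 bases. Clec4d had its single core 240 to 235 bases before the start, outside the stretch shown. Also outside the stretches shown were a further core of Clec5a at 81 to 76 bases and the C/EBP match of Clec12a at 140 to 133 bases. The C/EBP letters were found in 2 of the 8 members (Clec4e and Clec12a) and in 9.56% of all windows. The half-site of retinoic acid receptors, AGGTCA, was found in 0 of the 8 and in 14.0% of all windows, and the AP-1 letters TGANTCA in 1 of the 8 (Clec12a) and in 6.75%. Such matches describe letters in these windows and were not tested as binding sites.

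Expected counts summed to between 5129662 and 5571409 per library, and between 14642 and 15302 genes were listed in each. The expected count is RSEM's estimate of the fragments of a gene and need not be whole, and FPKM is that count scaled for transcript length and library total. A gene was called higher or lower when the log2 ratio of FPKM was at least 1 in size and the false discovery rate of a Poisson test of the counts was at most 0.001, the thresholds of the study's methods. Such a call compares the reads of a pair of libraries, not the conditions, and the 95% intervals given below cover counting error only. Over all genes tested, 8.09% were called higher and 13% lower in TR1 than in control, and 9.37% were called higher and 10.8% lower in TR9 than in control. Between the leukemias, 4.34% were called higher and 2.31% lower in TR9 than in TR1. The median log2 ratio over all genes above the floor of 3 counts was -0.29 in TR1 and -0.13 in TR9 against control, and 0.14 in TR9 against TR1. These medians depend on how the libraries are scaled. Scaling by edgeR's TMM, which sets the bulk of genes level, moved the median ratio of all genes by 0.25 in TR1 and 0.11 in TR9 against control and by -0.13 between the leukemias, and rescaling FPKM to equal sums, as in TPM, moved it by -0.23, -0.11 and 0.12. The share of calls in TR1 that were higher was 38.3%, 51.6% with TMM and 26.7% with TPM. No call of any of the 10 receptor genes changed under these scalings.

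The receptor genes were more abundant in both leukemias than in control as a sum, and most abundant in TR1. Their summed FPKM was 628 in TR1 and 256 in TR9, against 118 in control. Clec12a held most of this sum in every library, 57.4% in TR1 and 50.6% in TR9 against 70.4% in control. The share of Clec5a went from 4.65% in control to 19.4% in TR1 and 21.2% in TR9. Of the 10 genes, 3 reached 5 FPKM in control, 6 in TR1 and 5 in TR9. Clec4a1, Clec4a3, Clec4n and Clec10a stayed at or under 2.3 FPKM in all 3 libraries. In bulk RNA, fewer cells of a type and less RNA per cell cannot be told apart, and this holds for every value below.

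**Figure D1:**
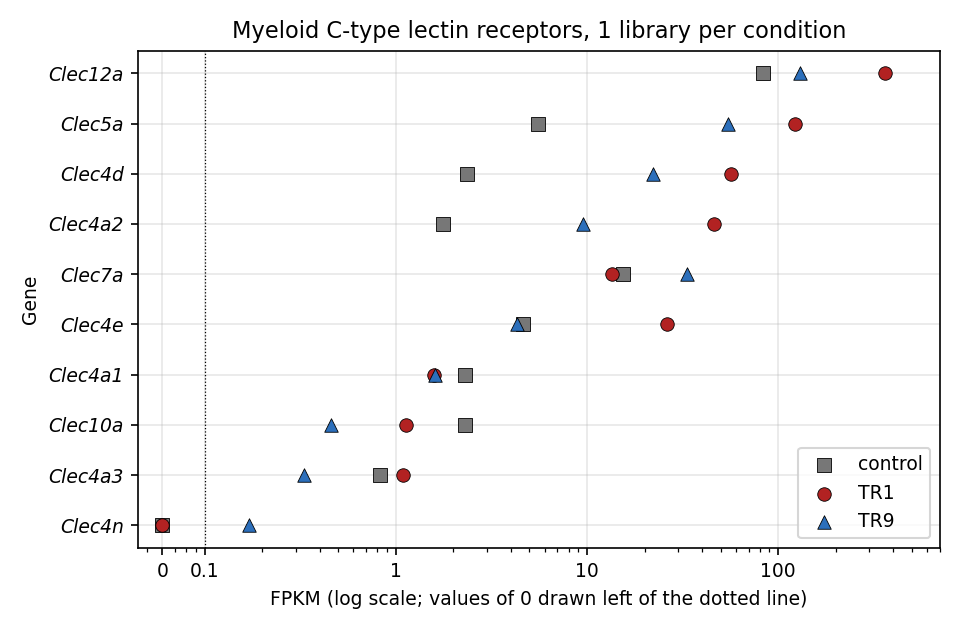
FPKM on a log axis (x) of each of the 10 receptor genes (y), with 1 point per library: squares for control, circles for TR1 and triangles for TR9; there are no error bars because each condition has 1 library. Clec12a is the highest gene in every library, at 83.31, 360.48 and 129.68 FPKM, and TR1 is the highest library for Clec5a, Clec4d, Clec4a2 and Clec4e, whereas TR9 is the highest for Clec7a.

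In TR1, 5 of the 9 members listed in TR1 or control were higher than in control and 0 were lower, beside 8.09% and 13% of all genes. These were Clec4a2, Clec4d, Clec4e, Clec5a and Clec12a, and the other 4 (Clec4a1, Clec4a3, Clec7a and Clec10a) were not called. Over the 9, the median log2 ratio was 2.11, beside -0.29 for all genes. In TR9, 4 of 10 were higher than in control (Clec4a2, Clec4d, Clec5a and Clec7a) and 0 were lower, beside 9.37% and 10.8% of all genes. The median was 0.64 over the 9 members above the floor, beside -0.13 for all genes. Clec4a2, Clec4d and Clec5a were higher in both leukemias, 3 of 10, as were 5.67% of all listed genes, and 0 members were lower in both, beside 8.39%. With a minimum of 10 expected counts in a library, 8 of the 10 members remain, without Clec4a3 and Clec4n.

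Among the activating receptors, Clec5a, which couples to DAP12, had 2580 expected counts in TR1 and 1054 in TR9, against 114 in control. At 5.51, 121.94 and 54.35 FPKM in control, TR1 and TR9, the order kept for values in a row below, it ranked 8454th among the genes of the control library, 499th in TR1 and 1381st in TR9. Both leukemias were therefore far above control, and TR1 was above TR9. The log2 ratio of TR1 to control was 4.47 (95% interval 4.21 to 4.76), or 22.1-fold, and that of TR9 was 3.3 (3.03 to 3.6), or 9.86-fold.

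Clec4d and Clec4e encode MCL and Mincle, which form a receptor for mycobacterial glycolipid and signal through FcRγ. Clec4d had 17, 416 and 150 counts, or 2.35, 56.36 and 22.1 FPKM. Its log2 ratio against control was 4.58 in TR1 (3.89 to 5.38) and 3.23 in TR9 (2.51 to 4.06). Clec4e, the next gene on the chromosome, had 64, 370 and 56 counts, or 4.62, 26.24 and 4.32 FPKM, so that TR1 stood alone and TR9 was close to control. Its log2 ratio was 2.51 in TR1 (2.12 to 2.92) and -0.1 in TR9 (-0.64 to 0.45), where it was 0.01 with TMM scaling. In control the FPKM of Clec4e was above that of Clec4d, and in both leukemias it was below. Clec4n, which encodes the mannan receptor Dectin-2, was not listed in control or TR1 and had 1 count in TR9. All 3 values are at or under the floor of 3 counts, which is between 0.538 and 0.585 ppm of a library, so no difference was detectable at this depth.

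Clec7a encodes Dectin-1, the receptor for fungal β-glucan, which carries an ITAM-like motif in its own tail. It was the only member whose highest level was in TR9 with a call. It had 193, 172 and 392 counts, or 15.44, 13.52 and 33.5 FPKM. The log2 ratio against control was -0.19 in TR1 (-0.49 to 0.12), or 0.06 with TMM scaling, and 1.12 in TR9 (0.87 to 1.38). The value in TR9 lay close to the threshold of 1, and it was not called with a threshold of 2 or by edgeR's exact test at an assumed coefficient of variation of 0.2.

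Clec12a and Clec4a2 encode inhibitory receptors that carry an ITIM, MICL and DCIR1. Clec12a had 1016, 4475 and 1480 counts. Its 83.31, 360.48 and 129.68 FPKM placed it 923rd, 180th and 468th among the genes of each library, so it was among the more abundant genes also in control. It was 4.33-fold higher in TR1, with a log2 ratio of 2.11 (2.02 to 2.22), and 1.56-fold higher in TR9 at 0.64 (0.52 to 0.76), under the threshold of 1. Clec4a2 was at the other extreme in control, with 23.8 counts there against 642 and 123 in the leukemias, or 1.76, 45.96 and 9.56 FPKM. Its log2 ratio was 4.71 in TR1 (4.13 to 5.37) and 2.44 in TR9 (1.82 to 3.15). The counts of Clec4a2 were not whole in any library, as happens where RSEM shares out reads that match several genes.

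The other lectins of the DCIR type, Clec4a1 and Clec4a3, remained low. Clec4a1 had 20, 14 and 13 counts in control, TR1 and TR9, and its log2 ratio was -0.54 in TR1 (-1.63 to 0.52) and -0.52 in TR9 (-1.65 to 0.56). Clec4a3 had 6, 8 and 2 counts. Its log2 ratio was 0.39 in TR1 (-1.32 to 2.2) and -1.33 in TR9 (-4.83 to 1.0), so these intervals leave room for changes in either direction.

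Clec10a encodes MGL1, a galactose-binding lectin of macrophages and dendritic cells. It had 18.75, 9.41 and 3.54 counts, lowest in TR9. The log2 ratios to control were -1.02 for TR1 (-2.43 to 0.11) and -2.32 for TR9 (-4.17 to -0.56), with no call. Its close paralogue Mgl2 went the other way, with 42.59, 424.18 and 152.11 counts, and rose in both leukemias (log2 ratios 3.29 and 1.93). The counts of both genes were not whole, and how RSEM split reads between them was not tested, so the value of each is uncertain. Together they had 61.34, 433.59 and 155.65 counts.

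**Figure D2:**
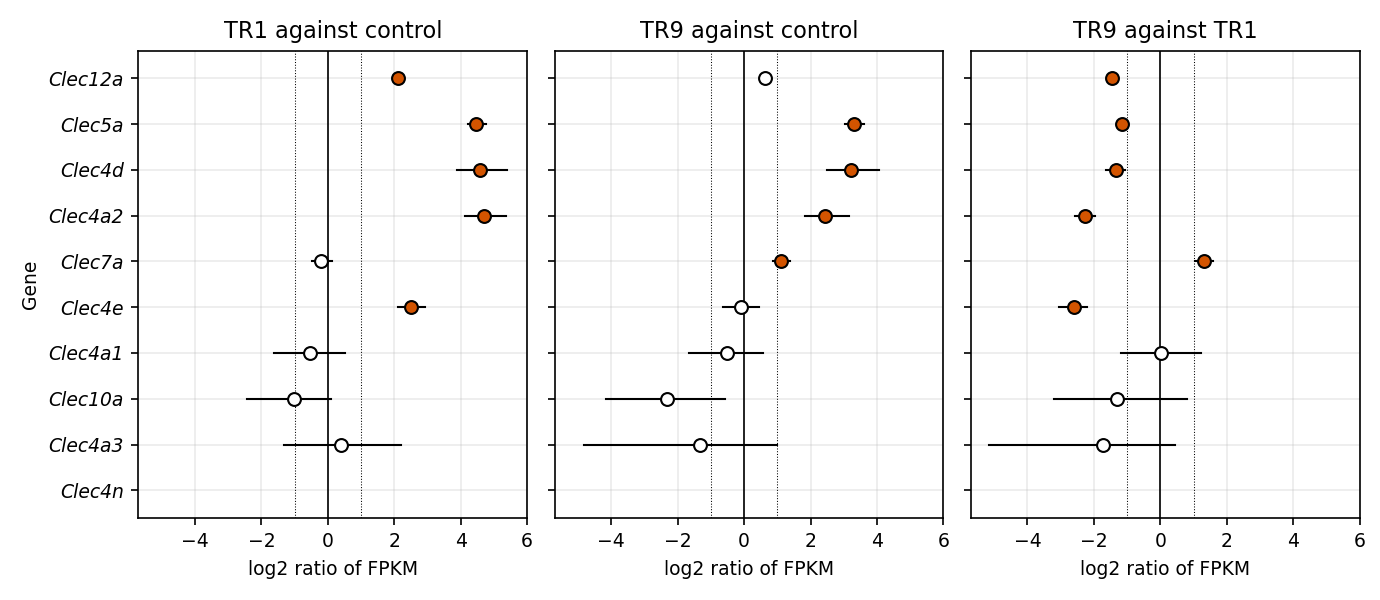
Log2 ratio of FPKM (x) for each receptor gene (y) in the 3 comparisons. Filled points were called and open points were not. Horizontal lines are 95% intervals of counting error for the ratio of counts, and dotted lines mark -1 and 1. Against control the called points all lie to the right, between 1.12 (Clec7a in TR9) and 4.71 (Clec4a2 in TR1), and in TR9 against TR1 Clec7a is the only called point on the right, at 1.31; Clec4n has no point.

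The leukemias also differed from each other. Compared directly, 5 of 10 members were lower in TR9 than in TR1 and 1 was higher, beside 2.31% and 4.34% of all genes. Clec4e was 6.07-fold lower in TR9 (log2 ratio -2.6, 95% interval -3.04 to -2.2) and Clec4a2 was 4.81-fold lower (-2.27, -2.56 to -1.98). Clec12a, Clec4d and Clec5a were lower by log2 ratios of -1.47 (-1.56 to -1.39), -1.35 (-1.63 to -1.08) and -1.17 (-1.28 to -1.07). Clec7a was 2.48-fold higher in TR9 (1.31, 1.05 to 1.57). Clec4a1 differed by 0.02 (-1.2 to 1.21), which was -0.11 with TMM scaling. The 5 genes that were lower in TR9 were those called higher in TR1 against control, 5 of the 10 members, beside 1.42% of all listed genes with both calls. The TR1 library is part of both comparisons, so the calls are not independent.

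**Figure D3:**
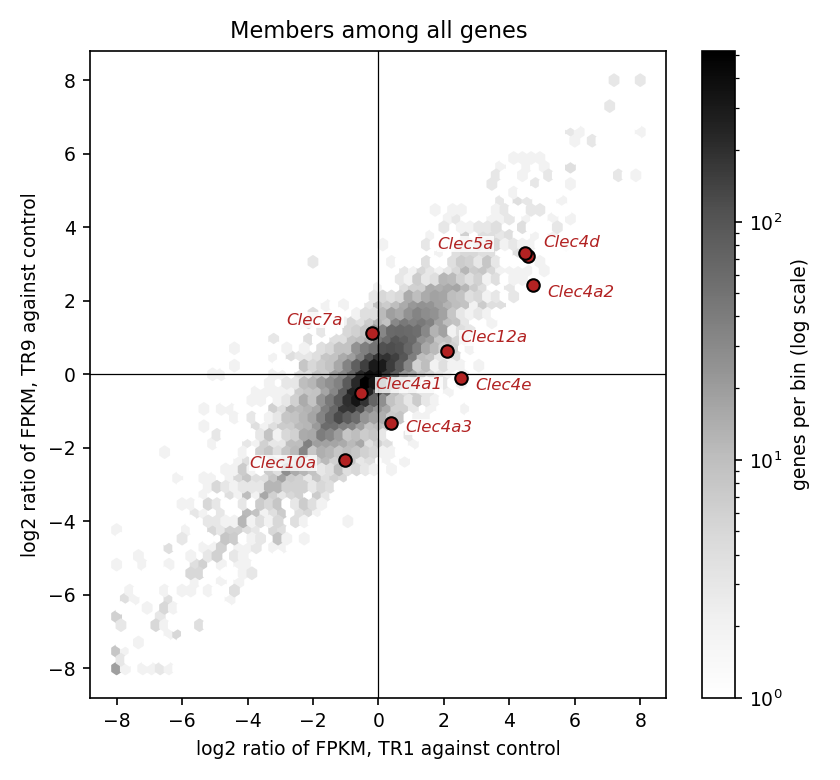
Log2 ratio of FPKM in TR1 (x) and in TR9 (y) against the same control library for all genes above the floor (grey, darker where more genes lie, values beyond 8 drawn at 8) and for the 9 receptor genes above it (red). Clec5a, Clec4d and Clec4a2 lie at the upper right, Clec4e at 2.51 and -0.1, and Clec7a at -0.19 and 1.12.

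Neighbors in the lectin clusters did not share 1 pattern. These neighbors were named for their position after their values had been seen. In the Dectin-2 cluster, Clec4a4 and Clec4b1, which lie between Clec4a3 and Clec4a2, were listed in no library. Clec4b2, between Clec4a2 and Clec4n, had 0, 66 and 5 counts and was at least 21.7-fold higher in TR1 against the floor of 3 counts. Of the 9 genes in this cluster, Clec4a2, Clec4b2, Clec4d and Clec4e were higher in TR1 than in control, and all 4 were lower in TR9 than in TR1. In the Dectin-1 cluster, between Clec12a and Clec7a, Clec1b and Clec9a fell. Clec1b, a platelet receptor, had 179, 8 and 4 counts, and Clec9a, a receptor of cross-presenting dendritic cells, had 90, 5 and 3. Olr1, which encodes the oxidized LDL receptor LOX-1 and lies beyond Clec7a, had 95, 564 and 1565 counts and was highest in TR9, as was Clec7a.

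**Figure D4:**
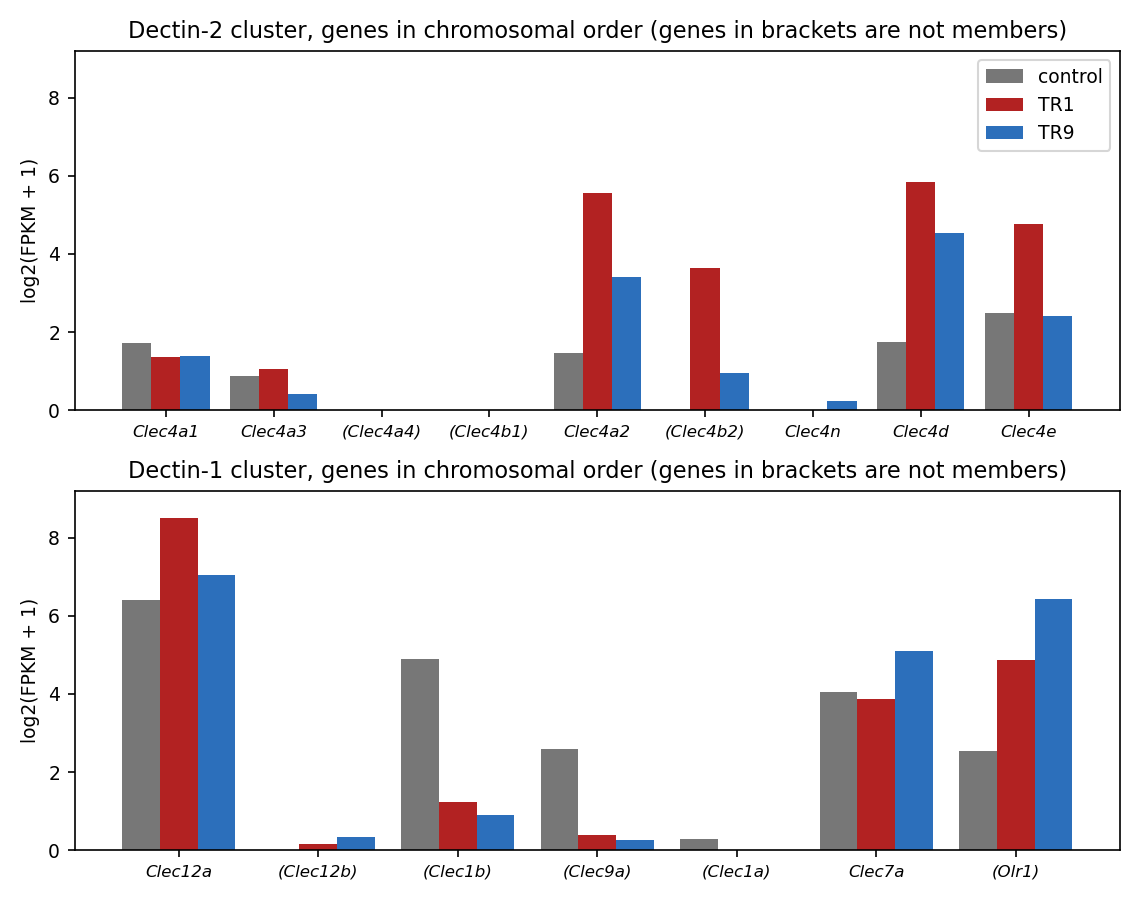
Log2(FPKM + 1) (y) of the protein-coding genes of both lectin clusters in chromosomal order (x), with 1 bar per library; genes in brackets are not among the 10, and the spacing is not to scale. Clec4a2, Clec4b2, Clec4d and Clec4e have their tallest bar in TR1, Clec7a and Olr1 have it in TR9, and Clec1b and Clec9a in control.

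The signaling partners of these receptors moved less uniformly. Of 33 partner genes, 9 were higher (27.3%) and 3 lower (9.09%) in TR1, and 4 were higher (12.1%) and 4 lower (12.1%) in TR9, with medians of 0.28 and -0.12. Over all genes, 8.09% were higher and 13% lower in TR1, and 9.37% higher and 10.8% lower in TR9, with medians of -0.29 and -0.13. In TR9 the partners as a list were thus close to all genes. Fcer1g, for the adaptor FcRγ, had 362, 1038 and 524 counts and rose by a log2 ratio of 1.49 in TR1, with 0.63 and no call in TR9. Tyrobp, for DAP12, had 211, 847 and 201 counts and rose by 1.98 in TR1, while in TR9 its log2 ratio was 0.03. Tyrobp was lower in TR9 than in TR1 by a log2 ratio of -1.95. Hcst, for the adaptor DAP10, had 4, 47 and 62 counts and rose in both, by 3.53 and 4.05.

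Downstream of the adaptors, the kinase Syk was at 44.06 FPKM in control, 38.22 in TR1 and 39.74 in TR9, with log2 ratios of -0.21 and -0.15 and no call. Card9, the scaffold that links Syk to NF-κB, rose in both leukemias, from 172 counts to 652 and 668, by log2 ratios of 1.9 and 2.05. The Src-family kinase gene Fgr rose by 3.55 in TR1 and 1.36 in TR9. Traf6, a ubiquitin ligase of NF-κB signaling, had 405, 118 and 166 counts and fell by 1.8 and 1.19 on the log2 scale, and Vav2, a guanine nucleotide exchange factor, had 69, 15 and 17. On the inhibitory side, Ptpn6 (SHP-1) had log2 ratios of -0.01 and -0.51, and Inpp5d (SHIP1) had 0.2 and 0.34. Neither phosphatase gene was called.

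**Figure D5:**
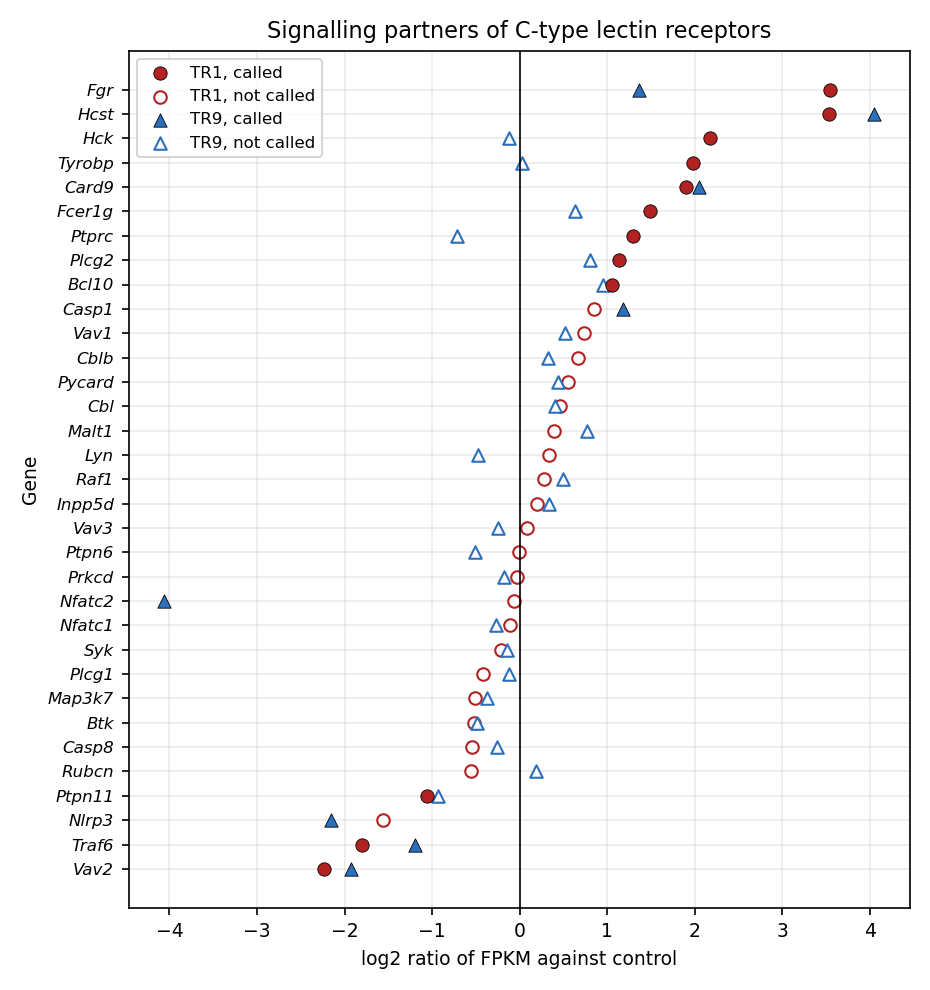
Log2 ratio of FPKM against control (x) for the 33 signaling partners (y, ordered by the value in TR1), circles for TR1 and triangles for TR9, filled where called. Card9, Hcst and Fgr are filled on the right in both leukemias, Vav2 and Traf6 on the left in both, and Tyrobp is at 1.98 in TR1 and 0.03 in TR9.

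Of 16 genes known as outputs of this pathway in myeloid cells, 15 were listed. In TR1, 3 of the 15 tested were higher and 2 lower, beside 8.09% and 13% of all genes. In TR9, 4 of the 14 tested were higher and 1 lower, beside 9.37% and 10.8% of all genes. The lower share in TR1 was 13.3%, close to that of all genes. Over the 9 output genes above the floor in TR1, the median log2 ratio was 0.87, beside -0.29 for all genes. Over the 11 above the floor in TR9, the median was 1.1, beside -0.13 for all genes. The cytokine gene Tnf had 12, 68 and 62 counts and rose in both leukemias. The transcription factor gene Egr1 had 66, 693 and 1364, and Ptgs2, for the cyclooxygenase COX-2, had 4, 43 and 36, and both rose too. Il1a, for interleukin-1α, had 53 counts in control and 0 in both leukemias, at least 17.9-fold and 16.5-fold lower. The chemokine gene Ccl3 had 123, 43 and 188 counts and fell by 1.54 on the log2 scale in TR1, with a log2 ratio of 0.71 and no call in TR9. Il6, Il10 and Il12b were not listed in either leukemia and had 6, 1 and 1 counts in control, with no call.

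A list of 35 further lectin genes, of which 30 were listed, changed in both directions. In TR1, 8 were higher and 7 lower, and in TR9, 10 were higher and 7 lower, with medians of 0.0 and -0.01 over the 26 genes above the floor. The higher share was 26.7% in TR1 and 33.3% in TR9, against 55.6% and 40.0% of the receptor genes tested and 8.09% and 9.37% of all genes. The lower share was 23.3% in both, against 13% and 10.8% of all genes. Clec11a, a secreted growth factor of the bone marrow, had 32, 1145 and 2130 counts and rose in both leukemias. Clec2d had 138, 167 and 560 counts and rose in TR9. Lgals3, for galectin-3, had 73, 258 and 149. Among genes that fell in both, Lgals9, for galectin-9, had 2474, 264 and 547 counts and Cd93, a lectin-like receptor of progenitors and endothelium, had 1475, 614 and 517.

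Among marker genes of other cell types, those of granulocyte stages were mostly higher in the leukemias, and more of the monocyte and macrophage and of the dendritic cell genes were lower than higher. Over all genes, 8.09% were called higher and 13% lower in TR1 than in control, and 9.37% and 10.8% in TR9. In TR9 against TR1 these shares were 4.34% and 2.31%. Of all listed genes, 5.67% were higher in both leukemias than in control and 8.39% lower in both. Of 12 genes of later neutrophil stages, 11 were higher in TR1 and 8 in TR9, and none was at 0. Their summed FPKM was 128, 23371 and 9057. S100a8 and S100a9 held most of the sum in TR1, at 8187.68 and 12864.29, and had 2413.62 and 1773.44 in TR9. Of those 12 genes, 6 were lower and 2 (Camp and Ngp) higher in TR9 than in TR1. Of 6 promyelocyte genes, 6 were higher in TR1 and 5 in TR9, with sums of 4262, 21348 and 23792. Of 18 monocyte and macrophage genes, 6 were higher (33.3%) and 8 lower (44.4%) in TR1. In TR9, 4 were higher (22.2%) and 10 lower (55.6%). The higher and the lower share were thus both above those of all genes in each leukemia. The sums of these 18 genes were 822, 6541 and 7002, of which Ly6c2 alone held 499.63, 5592.91 and 6295.68. Marco was at 0 in both leukemias but had only 1 count in control, and C1qc was at 0 in TR1. Of the 18, 4 were higher in both leukemias and 8 were lower in both. The 4 were Ly6c2, F13a1 (2118, 11852 and 6048 counts), Vcam1 (471, 3139 and 5110) and Cd68 (117, 879 and 298). Among the 8, Csf1r, the receptor that defines this lineage, fell from 510 counts to 141 and 81. Of the 9 listed dendritic cell genes, 1 was higher and 4 lower in TR1, and 0 were higher and 3 lower in TR9, with sums of 104, 42.3 and 53.3, and Zbtb46 was at 0 in both leukemias and Batf3 in all 3 libraries. In the other direction, all 7 erythroid and all 6 megakaryocyte genes fell in both leukemias, with sums of 1677, 36.6 and 32.1 for the erythroid and 903, 2.73 and 1.33 for the megakaryocyte genes, and Alas2, Pf4 and Gp6 were at 0 in both. Of the 7 listed lymphoid genes, 0 were higher in TR1 and 1 in TR9 (Vpreb1), 0 were lower in either, and their sums were 3.28, 3.53 and 5.43. The part of these cell types in the levels of the receptor genes was not tested.

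For Clec12a, the most abundant member, the 5 genes most like it among 9274 genes were Nupr1, Adgre1, Il4ra, Prss57 and Adam8. Only genes with at least 5 FPKM in a library and more than 3 expected counts in each of the 3 libraries were compared. Likeness was the distance between the pairs of log2 ratios of TR1 and TR9 to control, and it rests on 3 libraries. Nupr1 was at a distance of 0.042, with 2.38 FPKM in control, 10.22 in TR1 and 3.81 in TR9. Adgre1, which encodes the macrophage antigen F4/80, had 2.57, 11.96 and 4.24 FPKM at a distance of 0.134, and the other 3 lay within 0.166.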

How the data were processed

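Per the study's methods, the authors aligned filtered reads by BWA and Bowtie, and RSEM gave the gene levels. The labels' processing notes name mm9, and software versions are not given in the sources used here. For each library they deposited the expected count and the FPKM of each gene. The lengths deposited beside them were not used in tests. A gene not listed was taken as 0.

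Of 16742 NCBI Gene IDs, 16698 were matched to RefSeq symbols (GRCm38.p6), which were used for names and gene order. Promoters were matched by symbol for 8 of the 10 members, and the stretches of 150 bases hold no base that GENCODE M21 annotates as exon. Motifs were counted in all 250 bases before the start, annotated exons included. Members and gene lists were chosen with earlier results of these data known.

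FPKM under 0.01 were set to 0.01 for log2 ratios. The count test was a conditional exact Poisson test in scipy 1.17.1 on rounded expected counts, adjusted by Benjamini-Hochberg over all genes listed in either library. Intervals are Clopper-Pearson intervals of the ratio of rounded counts, each over its library total. The FPKM ratio given beside them also holds the transcript length, so the 2 differ slightly where that length differs between libraries, as for Clec4a3. A gene with 0 counts was set against 3 counts, giving a lower bound, and no fold is given where both libraries have 3 or fewer. Besides the members, named partners were 6 fixed genes and those called in both leukemias in 1 direction (up to 8 by FPKM), and named output and lectin genes were those called in either with at least 1 FPKM, up to 8 per list by FPKM; genes named outside this rule were chosen after their values were seen. 1 gene that the rule names is not reported here. Alternatives were TMM (edgeR 4.0.16) and median-of-ratios scaling (DESeq2 1.42.0), a floor of 0.001, a pseudocount of 1 FPKM, filters, stricter and looser thresholds and edgeR's exact test with an assumed variation, as well as TPM scaling, added after seeing the data. In simulated Poisson counts with 200 genes changed by a log2 ratio of 2, 191 of them were called in TR1 against control (15743 genes) and 0 unchanged genes were called. The simulated counts followed the model of the test, with no variation between mice, and only genes above a minimum mean count were changed. They therefore check the calculation and cannot give the rate of false calls between conditions.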

Additional observations from a re-analysis of the deposited data

Results flagged for a closer look

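For 6 of the 10 receptor genes the leukemias differed when the TR9 and TR1 libraries were compared directly, a comparison of reads with no replicate. The log2 ratios of TR9 to TR1 were -2.6 for Clec4e, -2.27 for Clec4a2, -1.47 for Clec12a, -1.35 for Clec4d and -1.17 for Clec5a, and 1.31 for Clec7a. Against control, Clec4e and Clec12a were called in TR1 and not in TR9, and Clec7a in TR9 and not in TR1. With edgeR's exact test at an assumed biological coefficient of variation of 0.2, only Clec4a2 and Clec4e of these 6 remained called between the leukemias, and Clec7a was no longer called in TR9 against control. With a log2 ratio of at least 2, Clec7a was not called in either comparison.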

How the results depend on the processing

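No paired analysis was possible because each condition has 1 library, and no replicate could be left out. The members called against control and between the leukemias were the same genes under TMM, median-of-ratios and TPM scaling, the floor of 0.001 FPKM, the pseudocount and both filters. An uncalled ratio changed sign for Clec7a in TR1 (0.06 with TMM and 0.04 with the median of ratios), for Clec4e in TR9 (0.01 with TMM) and for Clec4a1 in TR9 against TR1 (-0.11 with TMM and -0.1 with the median of ratios). The assumed variation mattered most. At a coefficient of variation of 0.4, edgeR's exact test called 3 members in TR1 (Clec4a2, Clec4d and Clec5a), 0 in TR9 and 0 between the leukemias, 0 signaling partners in either leukemia, 1 and 2 output genes and 3 and 3 other lectin genes in TR1 and TR9. At 0.2 it called 2 members between the leukemias, 6 and 3 partners in TR1 and TR9, and 9 other lectin genes in TR9. With a log2 ratio of at least 2, 2 members differed between the leukemias, 4 partners were called in each of TR1 and TR9, and 10 other lectin genes were called in TR9. With a pseudocount of 1 FPKM, 5 partners were called in TR9. At a false discovery rate of 0.05, Clec10a was also called lower in TR9. Over all genes, counts higher and lower moved by over 1.5 times under 3 settings. At a variation of 0.2 they were 657 and 992 in TR1, 717 and 830 in TR9 and 188 and 94 between the leukemias, at 0.4 they were 170 and 347, 161 and 287, and 13 and 2, and with a log2 ratio of at least 2 they were 685 and 1133, 738 and 928, and 283 and 135, beside 1318 and 2120, 1527 and 1766, and 681 and 363 as reported.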

Other observations

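Outside the rule for named genes, and chosen after their values were seen, 4 of the other lectin genes called in at least 1 leukemia are given here. Klrk1, for the receptor NKG2D, had 1 expected count in TR1 against 23 in both control and TR9. Cd69, an early activation antigen, had 49 counts in control and 109 and 214 in TR1 and TR9, and was higher than control in both leukemias, by log2 ratios of 1.13 and 2.22. Ly75, for the endocytic receptor DEC-205, rose by 1.52 and 1.71, whereas Mrc1, for the macrophage mannose receptor, had 165 counts in control against 27 and 29 and fell by 2.63 and 2.41 on the log2 scale.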
